A study of Mus musculus with 12 samples.

Results

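Antigen presentation was followed through 10 genes in B16-F10, a line of pigmented melanoma cells from the mouse. The genes were H2-K1, H2-D1, B2m, Tap1, Tap2, Tapbp, Psmb8, Psmb9, Nlrc5 and Cd1d1. A probe set of the array belonged to a gene when the platform annotation gave that symbol and no other. This took 28 of the 45101 probe sets, and 3 more that carry a member's symbol beside that of another gene were left out. The study measured which genes FoxD3, a forkhead transcription factor, regulates in these cells. The FoxD3-VP16 group expressed chicken FoxD3 with its C-terminal repression domain exchanged for the transactivation domain of VP16. The FoxD3 group expressed chicken FoxD3, and the empty vector group received pMES alone. In all 3 groups the pMES plasmid drove its insert from the chick beta-actin promoter and made EGFP from the same mRNA, and cells with EGFP were sorted at 24 h. Each group had 4 arrays, numbered 1 to 4. The labels do not say whether these came from separate cultures, so p-values measure only how far these samples differ among themselves, and that spread may be technical. The 3 comparisons share groups: each group of arrays enters 2 of them.

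MHC class I molecules show peptides from inside the cell to CD8 T cells. The proteasome cuts the peptides, TAP1 and TAP2 carry them into the endoplasmic reticulum, tapasin (Tapbp) holds TAP to the empty molecule, and the finished molecule is a heavy chain (H2-K1 or H2-D1 here) with beta-2-microglobulin (B2m). NLRC5 is a transcriptional activator of class I genes, and interferon is the classical inducer of the pathway. CD1d, encoded in the mouse by Cd1d1 and its close relative Cd1d2, is also a heavy chain bound by beta-2-microglobulin, but it shows lipids to natural killer T cells. Class I levels are often reduced in melanoma, and B16 cells are known for low class I at the surface.

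Cd1d1 was higher in FoxD3-VP16 cells than in both other groups, and the class I heavy chain gene H2-K1 was higher in FoxD3 cells than in both other groups. Cd1d1 in FoxD3-VP16 cells stood 6.30-fold above FoxD3 cells and 3.86-fold above empty vector cells. H2-K1 in FoxD3 cells stood 1.92-fold above empty vector cells, and in FoxD3-VP16 cells it was 2.37-fold below FoxD3 cells. The 2 differences from empty vector cells were fragile. The H2-K1 call was lost without any of 7 of the 12 arrays, and the Cd1d1 call without any of 8. Both calls in FoxD3-VP16 against FoxD3 were kept without any single array. The loading genes Tap1 and Tapbp and the heavy chain H2-D1 were lower in FoxD3-VP16 than in FoxD3 cells when arrays with the same number were compared with each other, and they did not pass the test without this pairing. B2m and Nlrc5 passed the test in no comparison, paired or not. Levels are given as log2(intensity + 16) after quantile normalization, each gene by its brightest probe set, and each fold is a difference of mean levels on that scale, where the added 16 shrinks the changes of dim genes. Levels of different probe sets are not comparable with each other.

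Of the 10 genes, 9 were bright enough to be tested among 10916 genes, and Psmb8 was not. A gene passed when its adjusted p in limma was under 0.05. The 10 genes were chosen with earlier results of these data known. The counts beside shares of all genes are therefore description and no test of an excess. In FoxD3 against empty vector 1 of the 9 passed, higher, where 4.01% of all genes tested passed and 2.89% passed as higher. In FoxD3-VP16 against empty vector 1 of the 9 passed, higher, where 0.595% of all genes passed and 0.522% passed as higher. In FoxD3-VP16 against FoxD3 2 of the 9 passed, 1 higher and 1 lower, where 9.57% of all genes passed, 4.44% as higher and 5.13% as lower. When the replicate number was taken as a block, this last count was 5 of 9, 1 higher and 4 lower, where 32% of all genes passed, 14.6% as higher and 17.5% as lower. The block left the other counts at 1, where 21% of all genes passed in FoxD3 against empty vector and 11.1% in FoxD3-VP16 against empty vector. All 4 pairs of the same number had the same sign in 23.6% (higher) and 27.3% (lower) of all genes in FoxD3-VP16 against FoxD3. These shares were 14.3% and 15.2% in FoxD3-VP16 against empty vector, and 21.1% and 20.1% in FoxD3 against empty vector. The median log2 change of the 9 was 0.25 in FoxD3 against empty vector, -0.24 in FoxD3-VP16 against empty vector and -0.65 in FoxD3-VP16 against FoxD3. The medians over all genes tested were -0.004, -0.019 and -0.027 in the same order of comparisons.

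**Figure D1:**
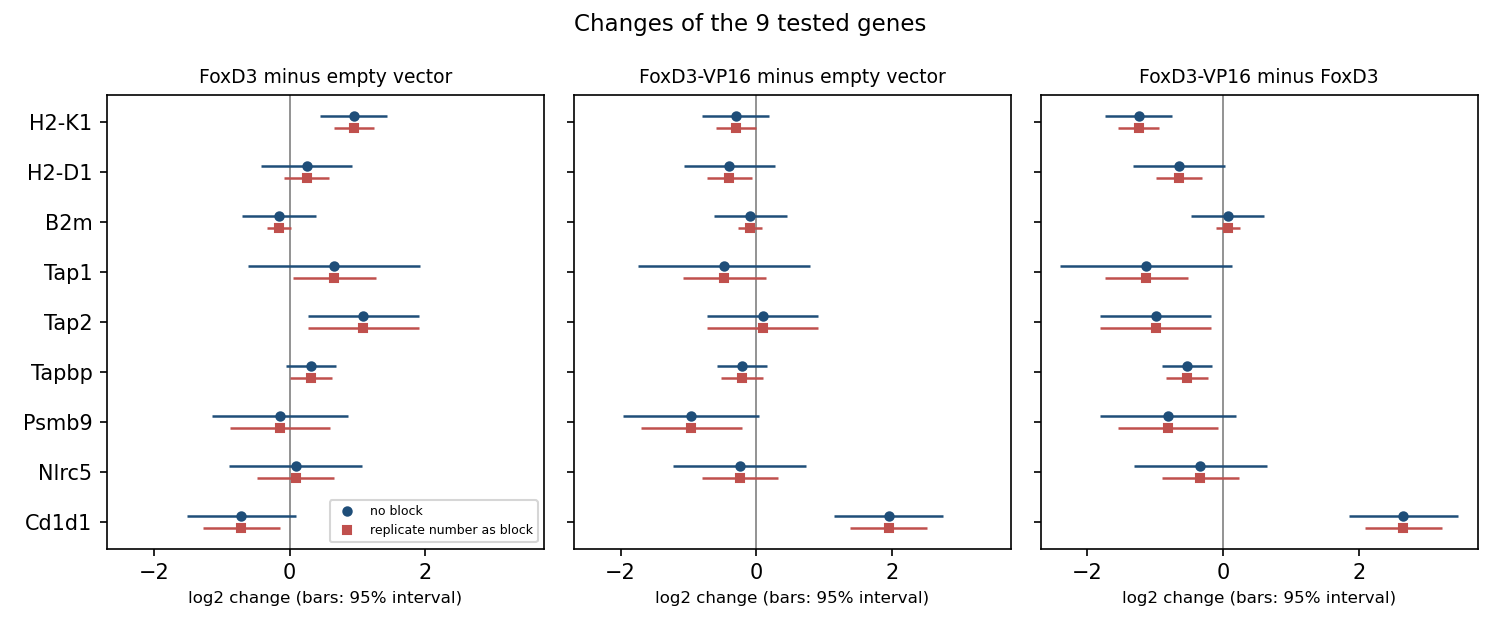
Log2 change (x axis) of the 9 tested genes (rows) in each comparison (panels), without a block (circles) and with the replicate number as a block (squares); bars are 95% intervals. Cd1d1 lies at 1.95 and 2.66 in the panels with FoxD3-VP16, while H2-K1 lies at 0.94 in FoxD3 against empty vector and at -1.24 in FoxD3-VP16 against FoxD3.

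The heavy chains come first. H2-K1, which presents peptides to CD8 T cells, had levels of 11.65, 12.39, 11.89 and 11.78 on FoxD3-VP16 arrays 1 to 4, of 12.67, 13.15, 13.39 and 13.47 on FoxD3 arrays, and of 11.80, 12.43, 12.04 and 12.64 on empty vector arrays. All 4 FoxD3 arrays were above every array of the other groups, and FoxD3-VP16 and empty vector arrays overlapped. Groups did not overlap for 18.2% of all genes in FoxD3-VP16 against FoxD3 and for 11.5% in FoxD3 against empty vector. The log2 change was -1.24 ± 0.23 (SE, n = 4 each) in FoxD3-VP16 against FoxD3, with a limma adjusted p of 0.00404. It was 0.94 ± 0.23 in FoxD3 against empty vector, with a limma adjusted p of 0.0352. The deposited intensities of this probe set were 3085 to 5357 in FoxD3-VP16, 7077 to 10535 in FoxD3 and 3544 to 6103 in empty vector cells.

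FoxD3-VP16 against empty vector gave -0.30 for H2-K1, with a 95% interval of -0.79 to 0.19 and a limma adjusted p of 0.763. The call in FoxD3 against empty vector was lost without any of 7 of the 12 arrays, with adjusted p up to 0.125 (without FoxD3 array 4), and it had an adjusted p of 0.498 when the gene's 4 probe sets were averaged (log2 change 0.29). The 7 were FoxD3-VP16 arrays 3 and 4, FoxD3 arrays 2, 3 and 4 and empty vector arrays 1 and 3. The probe set that gives these values is 1 of 13 among the 28 whose name ends in _x_at, which marks probes that also match other transcripts. Class I heavy chain genes are near copies of each other, so signal of H2-K1, H2-D1 and their relatives cannot be fully told apart. In the fit over all probe sets, this probe set had a limma adjusted p of 0.0632 in FoxD3 against empty vector. The other H2-K1 probe sets were at 0.57, 0.22 and -0.57 there (limma adjusted p of 0.621, 0.854 and 0.762), the last of them under the brightness limit.

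H2-D1, the second classical heavy chain, had levels of 12.56, 11.50, 11.09 and 11.70 on FoxD3-VP16 arrays 1 to 4, of 12.67, 11.75, 12.33 and 12.70 on FoxD3 arrays, and of 12.64, 11.59, 12.05 and 12.18 on empty vector arrays. Groups overlapped, but within each number the FoxD3-VP16 array was lowest. The log2 change in FoxD3-VP16 against FoxD3 was -0.65 ± 0.31 (SE, n = 4 each), with a limma adjusted p of 0.233, and of 0.0059 with the replicate block. A second probe set of H2-D1 whose name does not end in _x_at had 9.60, 7.64, 7.49 and 7.68 on FoxD3-VP16 arrays, 10.39, 9.01, 9.46 and 9.50 on FoxD3 arrays, and 9.49, 8.02, 8.98 and 8.73 on empty vector arrays. Its log2 change in FoxD3-VP16 against FoxD3 was -1.49, with a limma adjusted p of 0.0975 over all probe sets, and of 0.00024 with the replicate block. In all 4 numbers the FoxD3 array was highest for this probe set. Of the 9 H2-D1 probe sets 8 had a negative change in FoxD3-VP16 against FoxD3, with a median of -0.65, and -1.49 was the largest. Only 4 of the 9 lay above the brightness limit, and these 4 were all negative, with a median of -0.72. Since 7 of the 9 end in _x_at, they are not independent values. The other H2-D1 probe set without _x_at, under the brightness limit, was at -0.50 (limma adjusted p of 0.591 over all probe sets).

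The promoters of the 2 heavy chain genes are shown because both were lower in FoxD3-VP16 than in FoxD3 cells in the paired fit and the genes are near copies. Each line holds the 250 bases before the annotated start in RefSeq (build GRCm38.p6), 5′ to 3′ on the gene's strand. H2-K1 is at chr17:34000334-34000583 on the minus strand, taken at the last listed of its annotated starts, and H2-D1 at chr17:35262844-35263093 on the plus strand. Capitals mark matches on either strand to the letters GGGNNTTCC (an NF-kB-like motif), GAANNGAAA (like an interferon response element), CCAAT (the box bound by NF-Y) and TGTTTNC (the core bound by forkhead factors).
H2-K1: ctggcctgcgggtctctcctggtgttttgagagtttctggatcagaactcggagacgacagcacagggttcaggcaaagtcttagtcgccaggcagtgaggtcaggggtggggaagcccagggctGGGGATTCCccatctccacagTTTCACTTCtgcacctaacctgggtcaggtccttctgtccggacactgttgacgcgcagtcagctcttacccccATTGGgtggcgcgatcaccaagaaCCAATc
H2-D1: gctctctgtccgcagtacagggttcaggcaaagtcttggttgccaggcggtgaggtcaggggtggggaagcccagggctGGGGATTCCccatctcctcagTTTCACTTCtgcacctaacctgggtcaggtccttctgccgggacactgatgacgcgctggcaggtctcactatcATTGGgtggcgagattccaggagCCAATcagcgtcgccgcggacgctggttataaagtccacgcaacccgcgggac

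The 2 promoters share an unbroken run of 47 bases, and 169 of the 204 bases that can be set side by side at that shift are identical (82.8%). Both hold the NF-kB-like and the interferon-like letters, which 4.98% and 6.31% of all 32851 promoters of this length hold, and both hold CCAAT, which 33.8% hold. Neither holds the forkhead letters in this window, which 17.8% of promoters hold. Matched letters are a description and say nothing of binding.

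B2m, the light chain of class I molecules and of CD1d, had levels of 14.77, 14.00, 13.72 and 13.84 on FoxD3-VP16 arrays 1 to 4, of 14.62, 13.75, 13.83 and 13.87 on FoxD3 arrays, and of 14.62, 13.85, 14.08 and 14.14 on empty vector arrays. The array numbered 1 was highest in every group, and the groups overlapped. The log2 change was 0.07 in FoxD3-VP16 against FoxD3 (95% interval -0.47 to 0.61), -0.09 in FoxD3-VP16 against empty vector (-0.63 to 0.45) and -0.15 in FoxD3 against empty vector (-0.70 to 0.39). With the replicate block the intervals were -0.11 to 0.24, -0.26 to 0.09 and -0.33 to 0.02. The 250 bases before its start are shown beside the heavy chains as the promoter of the bright member that passed in no comparison with or without the block (chr2:122147437-122147686, plus strand). It holds CCAAT and no exact match to the other letters. Variants with another letter or spacing, such as gaaactgaaa in the B2m line, were not searched. Elements of these kinds may therefore be present in it.
B2m: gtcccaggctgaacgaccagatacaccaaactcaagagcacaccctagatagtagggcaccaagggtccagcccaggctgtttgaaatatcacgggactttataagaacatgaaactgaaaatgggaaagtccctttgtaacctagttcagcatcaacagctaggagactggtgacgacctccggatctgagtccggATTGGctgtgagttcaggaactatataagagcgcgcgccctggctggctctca

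**Figure D2:**
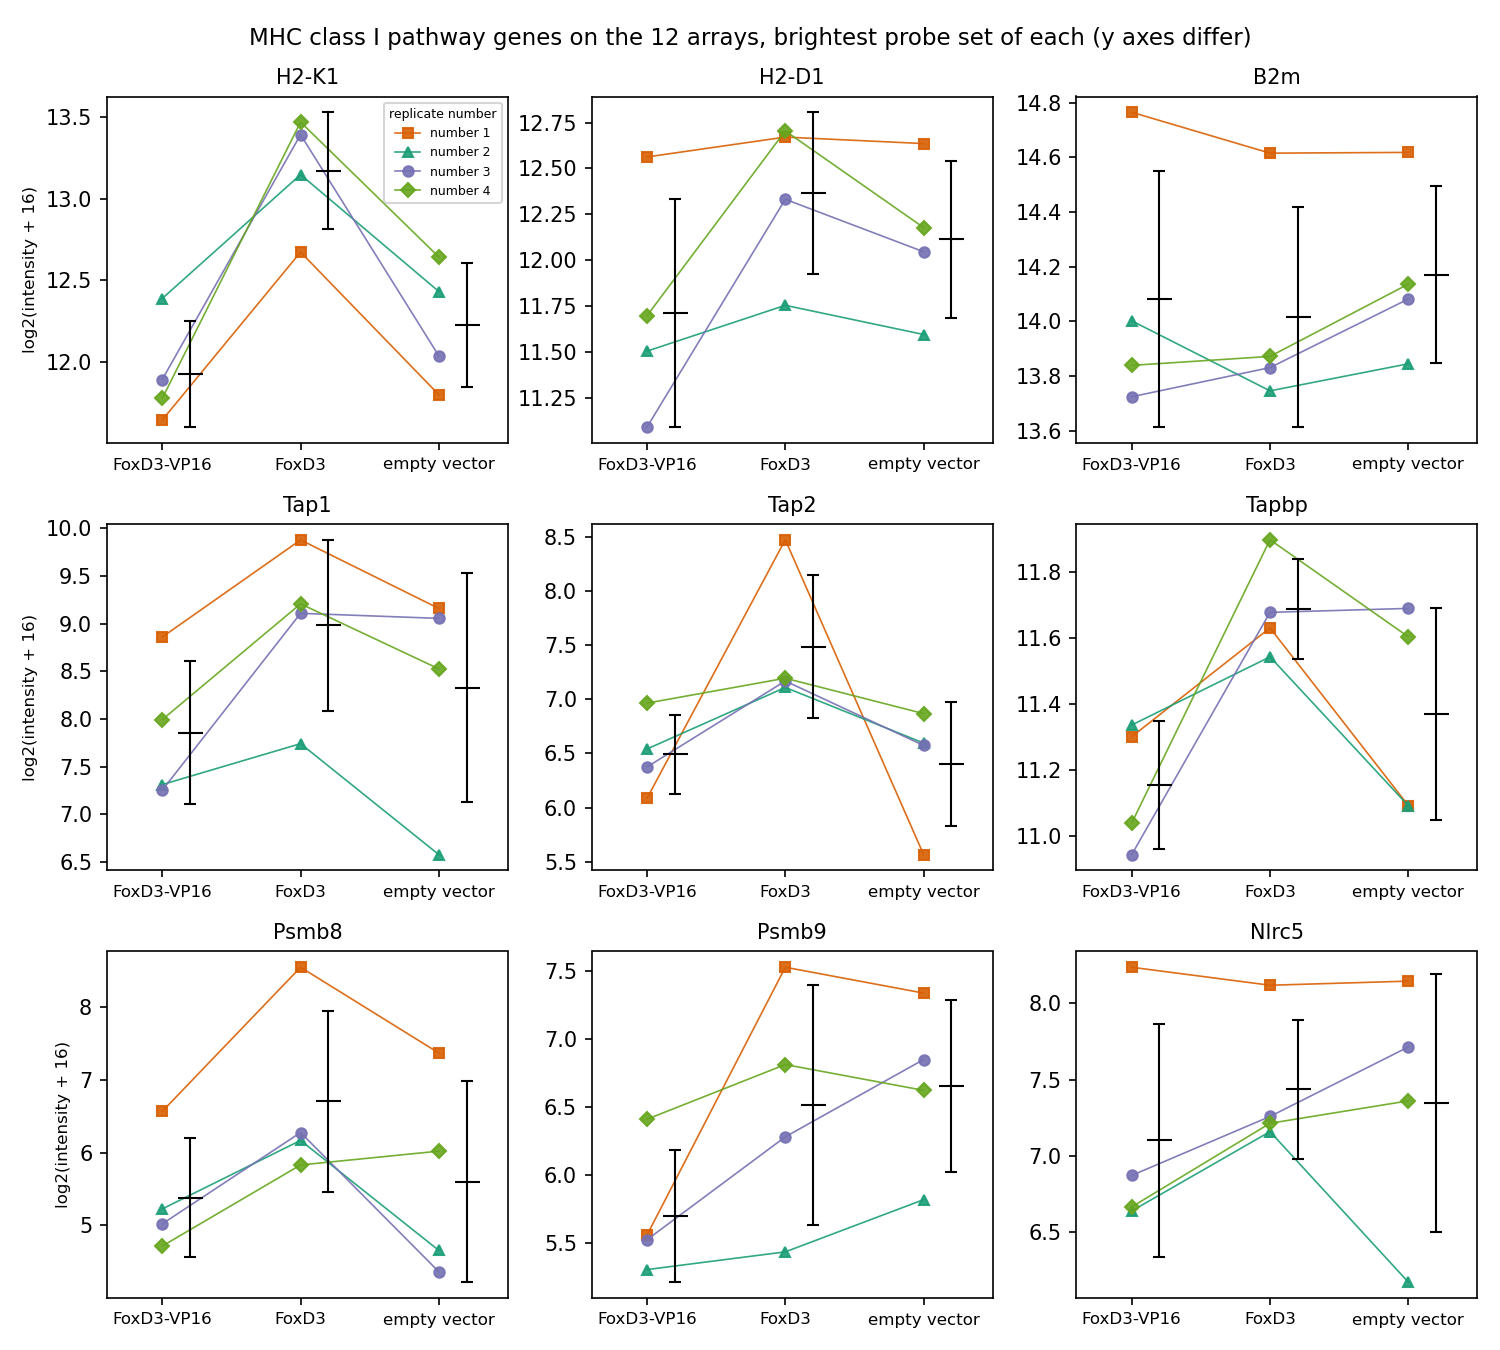
Level as log2(intensity + 16) (y axes, which differ) of the 9 genes of the class I pathway by group (x axis); lines join arrays with the same number, and black bars are mean and SD of 4 arrays. H2-K1 peaks in FoxD3 cells in all 4 numbers, and B2m, Psmb8 and Nlrc5 are highest on the arrays numbered 1.

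The transporter genes follow. Tap1, the first chain of the peptide transporter, had levels of 8.86, 7.31, 7.25 and 7.99 on FoxD3-VP16 arrays 1 to 4, of 9.88, 7.74, 9.11 and 9.21 on FoxD3 arrays, and of 9.16, 6.58, 9.06 and 8.53 on empty vector arrays. The FoxD3 array was the highest of its number in all 4 numbers, while the arrays of a group spread over 1 or more log2 units and the groups overlapped. The log2 change in FoxD3-VP16 against FoxD3 was -1.13 ± 0.59 (SE, n = 4 each), with a limma adjusted p of 0.279, and of 0.0081 with the replicate block. In FoxD3 against empty vector it was 0.65, with a limma adjusted p of 0.687, and of 0.121 with the block. The other 3 Tap1 probe sets lay below the brightness limit, and with all 4 averaged the adjusted p with the block was 0.247.

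Tap2, the second chain of the transporter, had levels of 6.08, 6.54, 6.37 and 6.96 on FoxD3-VP16 arrays, of 8.47, 7.11, 7.17 and 7.19 on FoxD3 arrays, and of 5.56, 6.60, 6.57 and 6.87 on empty vector arrays. All 4 FoxD3 arrays were above all 8 others, and the array numbered 1 was the highest of the FoxD3 arrays. Within numbers 1 to 4, FoxD3 minus empty vector was 2.91, 0.51, 0.60 and 0.33. FoxD3-VP16 minus FoxD3 was -2.39, -0.57, -0.79 and -0.23. Number 1 thus gave the largest difference in both, and the mean changes below rest largely on it. The log2 change was -0.996 ± 0.38 (SE, n = 4 each) in FoxD3-VP16 against FoxD3, with a limma adjusted p of 0.126, and of 0.0598 with the replicate block. It was 1.09 ± 0.38 in FoxD3 against empty vector, with a limma adjusted p of 0.149, and of 0.0579 with the block. Tap2 therefore passed neither way.

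Tapbp, whose product tapasin bridges TAP and the empty heavy chain, had levels of 11.30, 11.34, 10.94 and 11.04 on FoxD3-VP16 arrays, of 11.63, 11.54, 11.68 and 11.90 on FoxD3 arrays, and of 11.09, 11.09, 11.69 and 11.60 on empty vector arrays. Every FoxD3-VP16 array was below every FoxD3 array, and the empty vector arrays spanned both groups. The log2 change in FoxD3-VP16 against FoxD3 was -0.53 ± 0.17 (SE, n = 4 each), with a limma adjusted p of 0.0671, and of 0.0130 with the replicate block. The second Tapbp probe set had -0.21 in the same comparison, with a limma adjusted p of 0.848 over all probe sets, and with both averaged the adjusted p with the block was 0.135.

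The Tapbp promoter and the interval that Tap1 shares with Psmb9 are shown because Tap1 and Tapbp, like the heavy chains, were lower in FoxD3-VP16 than in FoxD3 cells in the paired fit. Tap1 and Psmb9 start back to back, and the 225 bases between their starts (chr17:34187331-34187555) are given on the strand of Tap1. The Tapbp line is the 250 bases before its start (chr17:33919228-33919477, plus strand). Capitals have the same meaning as above.
Tap1 and Psmb9: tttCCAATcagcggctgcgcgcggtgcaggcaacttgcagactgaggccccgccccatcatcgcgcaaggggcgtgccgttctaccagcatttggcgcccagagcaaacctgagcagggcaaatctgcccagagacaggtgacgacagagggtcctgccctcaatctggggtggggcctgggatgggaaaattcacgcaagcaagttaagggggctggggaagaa
Tapbp: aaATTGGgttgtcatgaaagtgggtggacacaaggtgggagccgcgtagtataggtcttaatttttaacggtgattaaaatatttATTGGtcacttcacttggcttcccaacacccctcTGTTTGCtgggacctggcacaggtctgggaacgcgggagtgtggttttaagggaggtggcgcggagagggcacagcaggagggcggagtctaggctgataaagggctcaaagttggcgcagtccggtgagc
The Tapbp window holds CCAAT and the forkhead letters, as TGTTTGC. Of the 7 genes with a promoter in the RefSeq table, only Tapbp had the forkhead letters in its window, and 6 held CCAAT. Exact matches to the NF-kB-like and interferon-like letters were found in H2-K1 and H2-D1 alone, and variants of these letters were not searched. Tap2, Nlrc5 and Cd1d1 were not matched in that table.

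The immunoproteasome subunits replace constitutive proteasome subunits after interferon. Psmb9 had levels of 5.55, 5.30, 5.52 and 6.41 on FoxD3-VP16 arrays, of 7.52, 5.43, 6.28 and 6.81 on FoxD3 arrays, and of 7.33, 5.82, 6.85 and 6.62 on empty vector arrays. Within each number the FoxD3-VP16 array was lowest, and the groups overlapped. The log2 change was -0.81 in FoxD3-VP16 against FoxD3 and -0.96 in FoxD3-VP16 against empty vector, with limma adjusted p of 0.331 and 0.519. With the replicate block these p were 0.0876 and 0.0910.

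Psmb8 lay just under the brightness limit, with a mean of 5.90 over the 12 arrays against the limit of 5.98. Its levels were 6.57, 5.23, 5.02 and 4.71 on FoxD3-VP16 arrays, 8.55, 6.17, 6.28 and 5.83 on FoxD3 arrays, and 7.37, 4.65, 4.36 and 6.02 on empty vector arrays. The FoxD3-VP16 array was below the FoxD3 array in all 4 numbers. In the fit over all probe sets its log2 change in FoxD3-VP16 against FoxD3 was -1.32, with a limma adjusted p of 0.453, and of 0.0402 with the replicate block.

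Nlrc5, the class I transactivator, had levels of 8.23, 6.64, 6.87 and 6.67 on FoxD3-VP16 arrays, of 8.12, 7.16, 7.26 and 7.21 on FoxD3 arrays, and of 8.14, 6.17, 7.71 and 7.36 on empty vector arrays. The 3 arrays numbered 1 were the highest of the 12, and the groups overlapped. The log2 change was -0.33 in FoxD3-VP16 against FoxD3 (95% interval -1.31 to 0.64), -0.24 in FoxD3-VP16 against empty vector (-1.22 to 0.73) and 0.09 in FoxD3 against empty vector (-0.89 to 1.07). Without the block these intervals reach past 1 log2 unit in at least 1 direction, so changes of that size lie within them. With the replicate block they were -0.90 to 0.23, -0.81 to 0.32 and -0.47 to 0.65, none of which reaches 1 log2 unit.

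Cd1d1, the lipid-presenting heavy chain, had levels of 9.20, 8.11, 8.46 and 8.73 on FoxD3-VP16 arrays 1 to 4, of 6.67, 6.17, 5.48 and 5.55 on FoxD3 arrays, and of 7.31, 7.06, 6.24 and 6.10 on empty vector arrays. All 4 FoxD3-VP16 arrays were above all 8 others, and in each number the FoxD3 array was lowest. Groups did not overlap for 5.71% of all genes in FoxD3-VP16 against empty vector. The log2 change was 2.66 ± 0.37 (SE, n = 4 each) in FoxD3-VP16 against FoxD3, with a limma adjusted p of 0.00065. It was 1.95 ± 0.37 in FoxD3-VP16 against empty vector, with a limma adjusted p of 0.0348. FoxD3 against empty vector gave -0.71 ± 0.37, with a limma adjusted p of 0.381, and of 0.0747 with the replicate block. Deposited intensities were 262 to 534 in FoxD3-VP16, 20.8 to 108 in FoxD3 and 48.3 to 155 in empty vector cells.

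The name of this probe set ends in _s_at, which marks probes shared by several transcripts. The second Cd1d1 probe set had 9.14, 8.03, 8.47 and 8.29 on FoxD3-VP16 arrays, 7.14, 4.93, 5.99 and 5.99 on FoxD3 arrays, and 8.03, 6.68, 5.84 and 5.90 on empty vector arrays. Here FoxD3-VP16 array 2 and empty vector array 1 met at 8.03. Over all probe sets its log2 change was 2.47 in FoxD3-VP16 against FoxD3, with a limma adjusted p of 0.0162. In FoxD3-VP16 against empty vector it was 1.87, with a limma adjusted p of 0.321, and of 0.0075 with the replicate block. Cd1d2, the near copy, had its own probe set with means of 4.55 in FoxD3-VP16, 4.71 in FoxD3 and 4.65 in empty vector cells, all under the brightness limit.

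The Cd1d1 call in FoxD3-VP16 against empty vector was lost without any of 8 of the 12 arrays, with adjusted p up to 0.158 (without FoxD3-VP16 array 4): the others were FoxD3-VP16 arrays 1 and 3, FoxD3 arrays 2, 3 and 4, and empty vector arrays 3 and 4. In FoxD3-VP16 against FoxD3 it was kept without any single array, with adjusted p of at most 0.0038. In bulk RNA, fewer cells with a transcript and less of it per cell cannot be told apart.

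**Figure D3:**
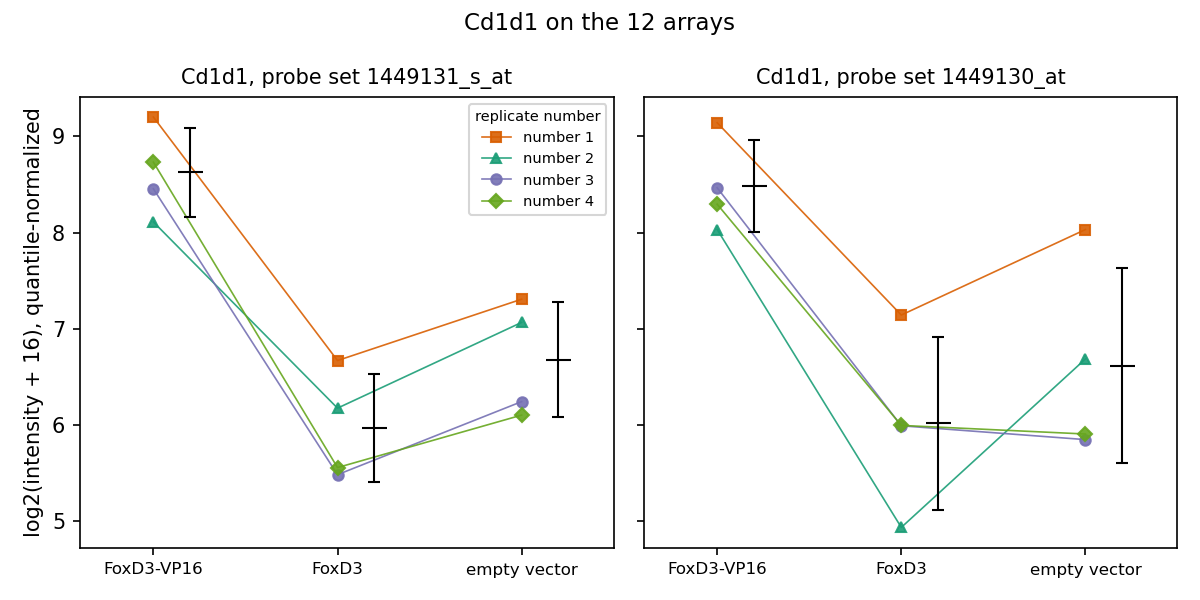
Level of the 2 Cd1d1 probe sets (panels) as log2(intensity + 16) (y axis) by group (x axis); lines join arrays with the same number, and black bars are mean and SD of 4 arrays. The FoxD3-VP16 arrays lie between 8.03 and 9.20, and the FoxD3 array is below the FoxD3-VP16 array in every number.

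Probe sets of a gene did not all move alike. In the fit over all 34945 probe sets with 1 symbol, 3 of the 28 passed in FoxD3-VP16 against FoxD3, both of Cd1d1 higher and 1 of H2-K1 lower, where 3.29% of all probe sets passed. With the replicate block 12 passed, 2 higher and 10 lower, where 12.9% passed. In FoxD3 against empty vector limma passed 0 of the 28, with 2 at an unadjusted p under 0.05, where 1.2% of all probe sets passed. In FoxD3-VP16 against empty vector it passed 0 of the 28, with 3 at an unadjusted p under 0.05, where 0.134% passed. With the block 2 passed in each of these comparisons, where 7.45% and 3.09% of all probe sets passed: 1 of H2-K1 and 1 of H2-D1 higher in FoxD3 against empty vector, and both of Cd1d1 higher in FoxD3-VP16 against empty vector. Of the 26 probe sets of the other 9 genes, 22 had a negative change in FoxD3-VP16 against FoxD3. They share genes and probes, so they are not 26 independent values. For counts at an unadjusted p, here and below, no share over all probe sets or genes is given. Those counts are therefore description only.

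**Figure D4:**
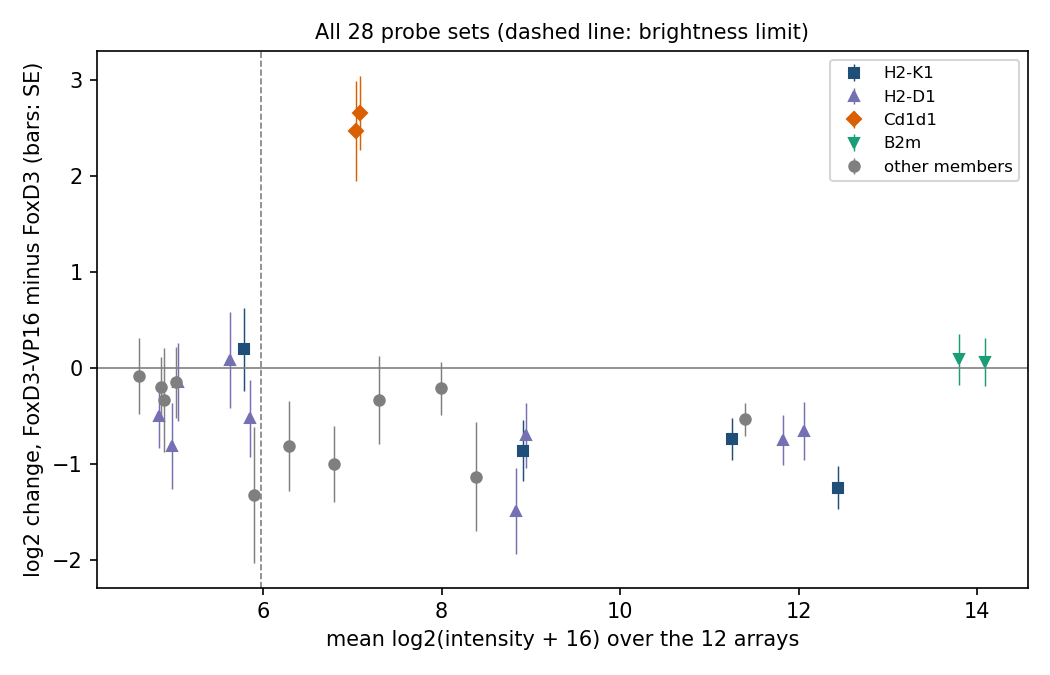
Log2 change in FoxD3-VP16 against FoxD3 with its SE (y axis) against mean level over the 12 arrays (x axis) for the 28 probe sets; the dashed line is the brightness limit of 5.98. Cd1d1 lies at 2.47 and 2.66, B2m near 0, and 13 of the 15 probe sets of the other 9 genes right of the line lie below 0.

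Of the genes around the pathway, Socs3, Jak2, Nfyb and Ifi30 passed the test in at least 1 comparison. Socs3, an inhibitor of JAK signalling, had levels of 7.06, 8.20, 7.11 and 8.04 on FoxD3-VP16 arrays, of 10.04, 8.85, 9.02 and 9.28 on FoxD3 arrays, and of 7.24, 7.30, 7.34 and 6.33 on empty vector arrays. Its log2 change was -1.69 in FoxD3-VP16 against FoxD3 (limma adjusted p = 0.0086) and 2.25 in FoxD3 against empty vector (limma adjusted p = 0.0030). Jak2, a kinase of the interferon gamma receptor, had 10.13, 9.77, 9.61 and 9.67 on FoxD3-VP16 arrays, 8.68, 8.82, 8.53 and 8.72 on FoxD3 arrays, and 9.55, 9.37, 9.38 and 9.28 on empty vector arrays. Its log2 change was 1.11 in FoxD3-VP16 against FoxD3 (limma adjusted p = 0.00072) and -0.71 in FoxD3 against empty vector (limma adjusted p = 0.0229).

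Socs3 was thus higher in FoxD3 cells than in both other groups, as was H2-K1, and Jak2 was lower in FoxD3 cells than in both. Nfyb, a subunit of the CCAAT-binding factor NF-Y, was at -1.26 in FoxD3-VP16 against FoxD3 (limma adjusted p = 0.0020), with means of 9.73 ± 0.26 in FoxD3-VP16 and 10.99 ± 0.29 in FoxD3 cells (SD, n = 4 each). Of 22 tested genes of the interferon and NF-kB inputs, 1 rose and 2 fell in FoxD3-VP16 against FoxD3, where 9.57% of all genes tested passed. In FoxD3 against empty vector 1 rose and 1 fell, where 4.01% of all genes passed. In FoxD3-VP16 against empty vector limma passed 0 of them, with 4 at an unadjusted p under 0.05. With the replicate block these counts were 5 and 4, 3 and 2, and 2 and 1 (higher and lower in each comparison), where 32%, 21% and 11.1% of all genes passed. Their median changes were 0.13, -0.03 and 0.10 in the same order.

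Ifi30, the thiol reductase that opens disulfide bonds of antigens in endosomes, had 10.37, 10.33, 10.75 and 10.64 on FoxD3-VP16 arrays, 12.45, 11.91, 11.91 and 11.94 on FoxD3 arrays, and 10.54, 10.72, 10.72 and 10.56 on empty vector arrays. The FoxD3 arrays were above all others without overlap. Its log2 change was -1.53 in FoxD3-VP16 against FoxD3 (limma adjusted p = 9.68e-05) and 1.42 in FoxD3 against empty vector (limma adjusted p = 0.00046). It was the only 1 of 3 tested genes of the MHC class II list that passed, and the other 7 of its 10 genes on the array were under the brightness limit. In FoxD3-VP16 against empty vector limma passed 0 of the 3, with 0 at an unadjusted p under 0.05.

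Of the other lists of pathway genes, 4 held no gene that passed in limma without the block in any comparison. These were 4 tested class I heavy chain relatives, 13 partners of peptide supply and loading, 17 genes of CD1d lipid loading and endosomal traffic, and 22 interferon-stimulated genes. At an unadjusted p under 0.05 they held 2, 2, 2 and 0 genes in FoxD3-VP16 against FoxD3, 2, 0, 0 and 1 in FoxD3-VP16 against empty vector, and 0, 1, 0 and 2 in FoxD3 against empty vector. Without the share of all genes at that threshold, these counts cannot be read as above or below it. The interferon-stimulated genes had median changes of 0.01, -0.11 and -0.14 in these comparisons. These medians hide a spread among arrays. Within the empty vector group, array 2 was lowest for each of the 22 genes. Array 2 was also lowest of the FoxD3 arrays for all but Iigp1 and Cxcl10. Among FoxD3-VP16 arrays it was lowest for some, but not for Oas1a. Usp18, chosen after its values were seen, had 12.87, 8.77, 12.78 and 12.52 on empty vector arrays. It had 12.47, 9.69, 11.75 and 11.87 on FoxD3 arrays, and 13.21, 10.74, 11.54 and 12.16 on FoxD3-VP16 arrays. Of the members, H2-D1, B2m, Tap1, Tapbp, Psmb9 and Nlrc5 were also lowest on empty vector array 2, and H2-K1, Tap2, Psmb8 and Cd1d1 were not. The share of all genes lowest on that array is not given, so these counts are description only. The part of this spread in the class I changes was not tested.

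With the replicate block 3 of the 4 relatives were higher in FoxD3-VP16 against FoxD3, where 14.6% of all genes passed as higher. These and the other genes called with the block alone were named after their values were seen. The 3 were Fcgrt, the heavy chain of the neonatal Fc receptor, at 0.74 (adjusted p = 0.0359 with the block), Hfe, a regulator of iron balance, at 0.62 (0.0154), and Mr1, which presents vitamin B metabolites to MAIT cells, at 0.70 (0.0369). Without the block their adjusted p were 0.197, 0.399 and 0.335. All 3 were higher in 4 of 4 pairs, and all 3 encode heavy chains that pair with B2m. Among the 13 peptide supply partners the block passed 0 as higher and 3 as lower in the same comparison, where 17.5% of all genes passed as lower. Of these 3, Calr, a chaperone of the loading complex, was at -0.37 (limma adjusted p = 0.103, and 0.0016 with the block). Among the 17 genes of the CD1d list it passed 6 as higher and 3 as lower, where 14.6% and 17.5% of all genes passed. The 6 were Ap3b1, Asah1, Ctsl, Gla, Npc1 and Npc2, with changes of 0.19 to 0.41. The lower genes included Ctsd, a lysosomal protease, at -0.61 (limma adjusted p = 0.167, and 9.36e-05 with the block). Among the 22 interferon-stimulated genes it passed 2 as higher and 1 as lower, beside the same shares of all genes.

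Likeness was measured by Pearson's r over the 12 arrays after each gene was centred on the mean of the arrays with the same number. The 5 genes most like Cd1d1 were Tecrl (0.991), Tfdp2 (0.991), Sesn3 (0.990), Cast (0.989) and Ift46 (0.989). The 5 most like Tap1 were Snx30 (0.964), Sec23ip (0.959), Eif2s3x (0.954), Ccdc115 (0.953) and Prmt5 (0.949). They were picked as the highest of all genes tested, and the points share arrays and treatment. Among the members, Tap1 and Tapbp had r = 0.93, H2-D1 and Tapbp 0.86, and H2-D1 and Tap1 0.86. Cd1d1 had r = -0.85 with H2-D1, -0.84 with H2-K1, -0.81 with Tap1 and -0.80 with Tapbp, and -0.05 with B2m. Without centring, Cd1d1 had r = -0.37 with H2-D1, -0.83 with H2-K1, -0.38 with Tap1, -0.79 with Tapbp and 0.26 with B2m, and Tap1 had r = 0.61 with Tapbp.

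Several measures moved with the array numbers or with the groups. The 3 arrays numbered 1 had a Gapdh 3′ minus 5′ difference of 0.56 to 0.77 log2 units and an 18S rRNA signal of 12.83 to 13.07, against -0.25 to 0.04 and 9.31 to 10.10 on the 9 others. On these 3 arrays B2m, Psmb8 and Nlrc5 were above all 9 others, which held for 12.5% of all genes tested. Without these 3 arrays H2-K1 was at -1.32 in FoxD3-VP16 against FoxD3, with a limma adjusted p of 0.0017. H2-D1 was at -0.83 and Tapbp at -0.60 in the same comparison, and both passed without the block when these arrays were left out (limma adjusted p of 0.0475 and 0.0444). Tap1 was at -1.17, with a limma adjusted p of 0.215, and of 0.0273 with the block. Cd1d1 was at 2.70 in FoxD3-VP16 against FoxD3 and at 1.96 in FoxD3-VP16 against empty vector (limma adjusted p of 0.00053 and 0.0156).

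All 10 melanocyte markers were bright, as the label of the line would have it. Their summed normalized intensity was 185729 to 202604 in FoxD3-VP16, 179652 to 188586 in FoxD3 and 203887 to 225729 in empty vector cells. Single markers moved apart with the groups. Sox10, a transcription factor of the melanocyte lineage, had log2 changes of -1.45 in FoxD3-VP16 against FoxD3, -0.72 in FoxD3-VP16 against empty vector and 0.73 in FoxD3 against empty vector (limma adjusted p of 1.52e-05, 0.0178 and 0.0029). Mitf, the regulator of pigment genes, was at 0.66 in FoxD3-VP16 against FoxD3 and -1.09 in FoxD3 against empty vector (limma adjusted p of 0.0389 and 0.0048). Tyr, the first enzyme of melanin synthesis, was at 0.89 in FoxD3-VP16 against FoxD3 (limma adjusted p of 0.0360). Rab38, which serves melanosome traffic, was at -0.66 in FoxD3 against empty vector (limma adjusted p of 0.0015).

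Of 15 leukocyte markers 4 were above the brightness limit (Adgre1, Csf1r, Fcer1g and Laptm5), and Ptprc, Cd3e, Cd3g, Ms4a1 and Itgam were under it. Their summed intensity was 367 to 2429 in FoxD3-VP16, 485 to 5041 in FoxD3 and 410 to 1364 in empty vector cells. Without the arrays numbered 1 the sums were 367 to 473 in FoxD3-VP16, 485 to 557 in FoxD3 and 410 to 427 in empty vector cells. Laptm5 was at 10.87, 12.13 and 10.07 on FoxD3-VP16, FoxD3 and empty vector array 1, and its highest level on the 9 others was 6.26. Of these genes Coro1a, chosen here after its values were seen, had 4.34, 5.64, 5.01 and 6.01 on FoxD3-VP16 arrays, 6.81, 6.87, 7.28 and 7.56 on FoxD3 arrays, and 4.12, 5.57, 5.70 and 4.85 on empty vector arrays, though its mean was too low to be tested. The part of these measures in the changes of the class I genes was not tested.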

How the data were processed

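Gene expression was measured on 12 one-colour Affymetrix arrays (Mouse430_2), 4 per group. The deposited values are linear intensities per probe set. They were made with MAS5, per the submitters' processing notes; the labels also name dChip, and no version is given in the sources used here. The 2% trimmed mean of every array was 500.003 to 500.004, so the authors' values were already scaled to a common mean. The number of arrays limits the precision.

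Intensities had 16 added, were log2-transformed and were quantile-normalized, since array medians spanned 0.79 log2 units. Control probe sets (64), those with several symbols (932) and those not listed (9160) were left out. Of 18193 genes, each represented by its brightest probe set, the lowest 40% by mean (under 5.98) were left out. limma 3.58.1 in R 4.3.3 fitted all 3 groups without a block (lmFit, eBayes with trend), with Benjamini-Hochberg adjustment over 10916 genes. A second fit took all 34945 probe sets with 1 symbol and no filter. Plots came from matplotlib 3.10.9 (Python 3.11.15). The code was tested on simulated data.

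The alternative fit has the replicate number as a block. After group means were removed, same-numbered arrays correlated at 0.37 to 0.67 in all 12 pairs, arrays numbered 3 and 4 at 0.37 to 0.54, and other pairs at -0.51 to 0.12. On this ground, from the data and not from the labels, the numbers were taken to pair the arrays.

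The members and the gene lists were chosen with earlier results of these data known. All 10 members are named, up to 4 passing genes of each other list per comparison, and the 5 genes most like Cd1d1 and Tap1; genes that passed with the block alone are named as such examples, chosen after their values were seen. Other alternatives were pseudocounts of 1 and 64, the values as deposited, no filter, the mean of all probe sets, no _x_at probe sets, array quality weights, no arrays numbered 1, each array left out in turn, and only the 2 groups compared.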

Additional observations from a re-analysis of the deposited data

Results flagged for a closer look

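Of 30 groups of 4 arrays (10 genes in 3 groups), 5 had an array farther from the rest than Dixon's 95% critical value allows, and in all 5 it was the array numbered 1, where chance flags about 1 group in 20. On FoxD3 array 1, B2m stood at 14.62 with the nearest array at 13.87, Tap2 at 8.47 with the nearest at 7.19, and Psmb8 at 8.55 with the nearest at 6.28. Nlrc5 stood at 8.23 on FoxD3-VP16 array 1, with the nearest FoxD3-VP16 array at 6.87, and at 8.12 on FoxD3 array 1, with the nearest FoxD3 array at 7.26. The arrays numbered 1 are also those with the high 18S rRNA signal and Gapdh 3′ minus 5′ difference, whose part in these values was not tested.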

How the results depend on the processing

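No called change turned its sign. Both calls in FoxD3-VP16 against FoxD3 (Cd1d1 higher, H2-K1 lower) were kept in every alternative that tested the gene: Cd1d1 ranged over 1.98 to 3.04 on the log2 scale and H2-K1 over -1.49 to -0.66. The other calls were fragile. The number of members called in FoxD3 against empty vector was 1; it became 0 with the mean of all probe sets, 0 without the _x_at probe sets, 0 with only the 2 groups compared, 3 with array quality weights, and 0 to 1 when an array was left out. In FoxD3-VP16 against empty vector it was 1; it became 0 with a pseudocount of 1, 0 with the values as deposited, 0 with no filter on brightness, 0 with the mean of all probe sets, 0 with only the 2 groups compared, 7 with array quality weights, and 0 to 1 when an array was left out. In the first 5 of these fits Cd1d1 had adjusted p of 0.0561 to 0.0728. In FoxD3-VP16 against FoxD3 it was 2; it became 1 without the _x_at probe sets, 6 with array quality weights, 4 without the arrays numbered 1, 3 with only the 2 groups compared (Tapbp added, adjusted p = 0.0447), and stayed 2 without any single array. With array quality weights B2m and Nlrc5 passed in FoxD3-VP16 against empty vector (-0.28, adjusted p = 0.0453, and -0.62, 0.0294), and B2m in FoxD3 against empty vector (-0.26, 0.0291).

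With the replicate block 5 members passed in FoxD3-VP16 against FoxD3 (H2-D1, Tap1 and Tapbp beside Cd1d1 and H2-K1), and the block changed no other member's call. Of the 28 probe sets it passed 2 in FoxD3 against empty vector, 2 in FoxD3-VP16 against empty vector and 12 in FoxD3-VP16 against FoxD3, against 0, 0 and 3 without it. Further fits were chosen after seeing the data. The replicate block with the mean of all probe sets passed 0 members in FoxD3 against empty vector, and with the values as deposited 2. In FoxD3-VP16 against FoxD3 the block passed 5 without the arrays numbered 1, 5 with the values as deposited, 5 with a pseudocount of 1, 7 with a pseudocount of 64, and 3 with the mean of all probe sets, where H2-D1 was kept and Tap1 and Tapbp were lost (adjusted p of 0.247 and 0.135).

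Counts over all genes moved too, from 438, 65 and 1045 in FoxD3 against empty vector, FoxD3-VP16 against empty vector and FoxD3-VP16 against FoxD3 to 2297, 1217 and 3498 with the block, 4193, 3465 and 4455 with array quality weights, 873, 250 and 1795 without the arrays numbered 1, and as few as 203, 13 and 619 without a single array (FoxD3 4, FoxD3-VP16 4 and FoxD3 4). With only the 2 groups compared, FoxD3-VP16 against empty vector had 20. The cause of these differences was not tested. Dim probe sets, Psmb8 and Cd1d1 in FoxD3 cells among them, limit what a fold can show.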
